A study of Mus musculus with 4 samples.

Results

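The genes described here are 10 that place or depend on methylation of lysine 9 of histone H3 (H3K9) or that silence retroelements in mouse embryonic stem cells (ESCs). They were chosen by symbol as known members of this system, namely Trim28, Setdb1, Suv39h1, Suv39h2, Ehmt1, Ehmt2, Atf7ip, Zfp57, Zfp809 and Hells. Each had 1 gene row among the 24421 of the TruSeq count files, each was among the 19891 genes that had at least 1 count and were tested, and each passed the minimum mean normalized count of 5. The choice was not made by their measured values, although earlier results of these data were known.

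The study asked how the transcriptome of R1, an established mouse ESC line, changes as the cells differentiate under retinoic acid (RA), which derives from vitamin A and drives neural and other fates. The libraries analysed were Illumina TruSeq, with 2 of Undiff and 2 of Day4. Undiff stands for ESCs kept with leukaemia inhibitory factor (LIF) in the methods and for embryoid bodies before RA in the sample labels. Day4 stands for embryoid bodies, which are aggregates formed without LIF, after 4 days of RA at 2 µM in the design text and 2 mM in the treatment label. All libraries came from the same line and the labels name no genetic change. Going by the methods, Undiff and Day4 differed in LIF, in culture form and in time in culture, with embryoid body growth before RA was added, as well as in RA. Going by the labels, Undiff was already embryoid bodies. The effects of these differences cannot be told apart, and a Day4 culture without RA was not analysed here. The 2 replicates of a state were grown and treated as separate cultures.

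Retroelements are genomic sequences that copied themselves through RNA and make up a large share of the mouse genome. In ESCs and the early embryo, KRAB zinc finger proteins bind particular retroelements and recruit the corepressor Trim28, which brings the methyltransferase Setdb1 to write trimethylated H3K9. Other enzymes write H3K9 methylation at pericentromeric repeats (Suv39h1 and Suv39h2) and dimethylation over broad silent regions (Ehmt1 and Ehmt2, also called GLP and G9a), and DNA methylation adds a further layer that helps to keep the elements silent in differentiated cells. Fragments on repeat copies were not counted in the files used, so the RNA of retroelements themselves was not measured here.

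The libraries held 32099074 to 47730944 fragments on genes, and 3 counts corresponded to 0.0629 to 0.0935 CPM (counts scaled to library size). All 10 markers of pluripotent ESCs were lower in Day4, with summed normalized counts of 187313 and 188344 in the Undiff libraries and 999.7 and 788 in the Day4 libraries. Pou5f1, the core pluripotency factor, had a log2 fold change of -7.87 and Nanog one of -6.43. All 7 RA response markers and all 6 endoderm markers were higher in Day4, as were 7 of 8 fibroblast markers, whose summed normalized counts were 2489 to 2750 in Undiff and 56563 to 61815 in Day4. Thy1 alone of the fibroblast markers was lower, with a log2 fold change of -3.80. The levels within these lists were uneven. In Day4 Gata4 and Gata6 were at 255 to 282 CPM, whereas Sox17, Foxa2, Afp and Ttr were at 0.92 to 4.33 CPM. Col3a1 alone held 40193 and 36401 of the fibroblast marker counts in Day4. In these bulk samples fewer cells of a type and less RNA per cell cannot be told apart, and the part of the change in cell types in the results below was not tested.

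The 10 genes did not change in a single direction. Of the 10 genes, 5 were differentially expressed genes (DEGs), meaning an adjusted p-value from edgeR no higher than 0.05, a log2 fold change of 1 or more in either direction and 5 or more normalized counts on average. All 5 were lower in Day4 (Trim28, Suv39h2, Zfp57, Zfp809 and Hells), and none was a DEG in the higher direction. By the same thresholds 42.8% of all genes tested were DEGs, with 22.2% higher and 20.6% lower. By the adjusted p-value alone 9 of the 10 changed, 3 higher and 6 lower, where 75.6% of all genes did. The normalized counts of the states did not overlap for 9 of the 10, where 85.4% of all genes had no overlap. The exception was Setdb1. These shares include genes under the minimum mean count, which all 10 passed. Of the 16472 genes with that minimum, 15420 had no overlap, 14309 passed the adjusted p-value and 8521 were DEGs. The median log2 fold change was -0.61 over the 10 genes and -0.027 over all genes tested. Many genes changed between the states, and 5 of 10 is close to the share of DEGs among all genes.

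**Figure D1:**
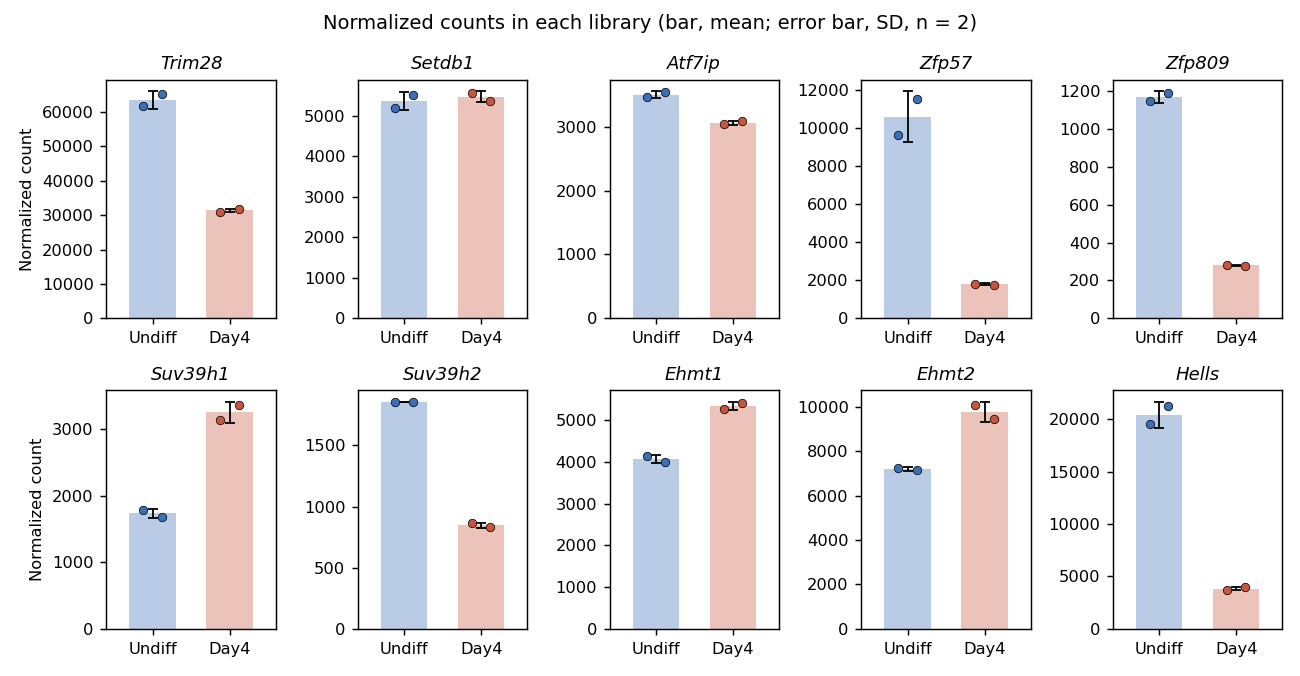
Normalized counts (vertical axis of each panel, starting at 0) of the 10 silencing genes in the 2 Undiff libraries (blue) and the 2 Day4 libraries (red), with points for libraries, bars for means and error bars for the SD. The states overlap for Setdb1 and are apart for the other 9 genes.

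Zfp57 is a KRAB zinc finger protein that binds methylated DNA at imprinting control regions and, with Trim28, keeps their methylation through early development. It had 9638 and 11527 normalized counts in the Undiff libraries and 1814 and 1740 in the Day4 libraries. The lower Undiff library was far above both Day4 libraries. Its mean was 10583 ± 1336 (SD, n = 2) in Undiff and 1777 ± 52.8 (SD, n = 2) in Day4. This was the largest change among the 10 genes, with a log2 fold change of -2.57 (SE 0.074, edgeR adjusted p = 1.5e-12), or 5.96-fold lower. Among genes with the minimum mean count, 11.3% had a lower log2 fold change than Zfp57. The gene lies on the forward strand of GRCm38.p6 at chr17:37001163-37010729, is protein coding and overlaps no other counted gene.

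The genes whose profile over the 4 libraries lay nearest to that of Zfp57 were sought among 10067 genes with a mean of at least 10 CPM, by the Euclidean distance of log2 CPM centred on each gene's own mean. Mir17hg, the host transcript of a microRNA cluster, was nearest with a distance of 0.080, followed by the small nucleolar RNA host gene Snhg4 and the Groucho-family corepressor Tle4, both with 0.12. Their log2 fold changes were -2.52 (Mir17hg), -2.55 (Snhg4) and -2.53 (Tle4). The profile has only 4 points in 2 states, so that genes with a like fold change come out as near.

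Zfp809 is the KRAB zinc finger protein that recognises the primer binding site of murine leukaemia viruses and related endogenous retroviruses, which they use to start reverse transcription with a proline tRNA. The Undiff libraries held 1146 and 1192 normalized counts and the Day4 libraries 282 and 276. The states were apart by far more than the difference between replicates. The means were 1169 ± 32.1 and 279 ± 3.99 (SD, n = 2 each), and the log2 fold change was -2.07 (SE 0.074, edgeR adjusted p = 1.4e-11), or 4.19-fold lower. At chr9:22225667-22254117 on the forward strand it overlaps no other counted gene, and no stretch of 100 bases of its exons is shared with another gene.

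Trim28, also called KAP1 or TIF1-beta, is the corepressor that links KRAB zinc finger proteins to Setdb1. It was the most abundant of the 10 genes in both states. The Undiff libraries held 61725 and 65363 normalized counts and the Day4 libraries 31045 and 31719, so that both Day4 libraries lay near the midpoint between 0 and the Undiff level. The means were 63544 ± 2573 and 31382 ± 477 (SD, n = 2 each). The log2 fold change was -1.02 (SE 0.038, 95% interval -1.10 to -0.93, edgeR adjusted p = 2.2e-11), or 2.02-fold lower. The interval included the minimum of -1, and the DEG call, though not the direction, was lost in 3 of 12 alternatives. With library totals in place of TMM factors the log2 fold change was -0.95, without Undiff replicate 2 it was -0.98, and a test against a fold change of 2 gave an adjusted p of 0.28, the highest of any alternative (the lowest was 3.1e-121, by DESeq2). Trim28 lies at chr7:13024152-13031032 on the forward strand and overlaps no other counted gene.

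Setdb1, the methyltransferase that Trim28 recruits, was level between the states within the spread of replicates. Undiff had 5206 and 5522 normalized counts and Day4 had 5571 and 5373. The Day4 replicate 2 value lay between the Undiff values, so the states overlapped. The log2 fold change was 0.03 (SE 0.046, edgeR adjusted p = 0.58), with a 95% interval of -0.07 to 0.13, which excludes a change of the size of that of Trim28. Setdb1 lies on the reverse strand at chr3:95323525-95357202 and overlaps Cers2 on the opposite strand by 75 bases, and 4.88% of the 100-base stretches of its exons are shared with other genes, so its counts are slightly uncertain.

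Atf7ip, also called MCAF1, is the partner that stabilises Setdb1 and supports its activity in the nucleus. It fell slightly, from 3464 and 3545 normalized counts in the Undiff libraries to 3040 and 3090 in the Day4 libraries. The states did not overlap. The log2 fold change was -0.19 (SE 0.046, 95% interval -0.29 to -0.09, edgeR adjusted p = 0.0019), far from the DEG minimum. The corepressor and both KRAB zinc finger proteins were thus DEGs, and the enzyme they act through and its partner were not. The call of the corepressor Trim28 was close to the minimum and was lost in 3 of 12 alternatives.

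**Figure D2:**
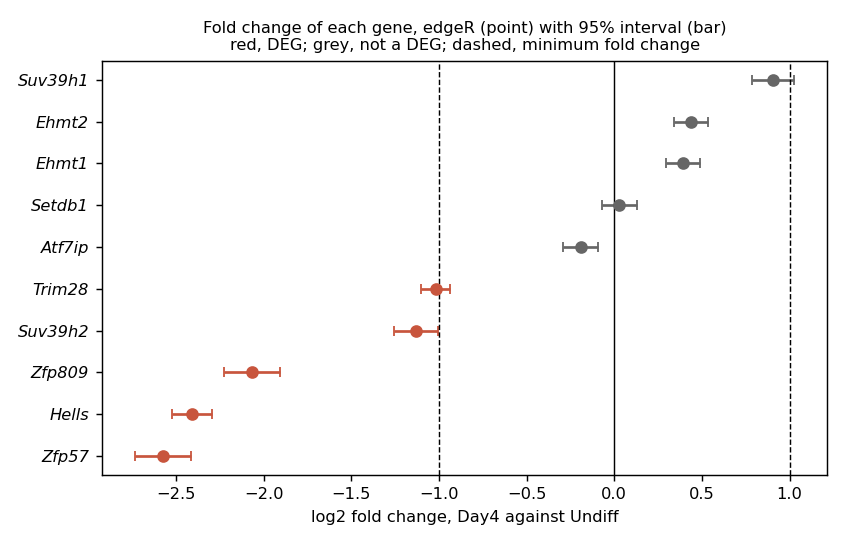
Log2 fold change of Day4 against Undiff (horizontal axis) for each of the 10 silencing genes, with the edgeR estimate as a point, its 95% interval as a bar, DEGs in red and the minimum of 1 in either direction dashed. Zfp57 (-2.57), Hells (-2.41) and Zfp809 (-2.07) lie well past the minimum, whereas the intervals of Trim28 and Suv39h1 cross it.

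Suv39h1 and Suv39h2 are paralogues that trimethylate H3K9 at pericentromeric heterochromatin and at some retroelements, and they changed in opposite directions. Suv39h1 had 1784 and 1684 normalized counts in Undiff and 3139 and 3361 in Day4. Suv39h2 had 1852 and 1856 in Undiff and 863 and 834 in Day4. Neither gene overlapped between the states. Per kilobase of exon, Suv39h1 was above Suv39h2 in all 4 libraries, with 14.6 and 13.8 CPM against 11.4 and 11.5 in Undiff and 25.7 and 27.6 against 5.33 and 5.15 in Day4.

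Suv39h1 rose with a log2 fold change of 0.91 (SE 0.055, 95% interval 0.79 to 1.03, edgeR adjusted p = 3.6e-09), or 1.88-fold, which is under the DEG minimum although the interval reaches past it. Suv39h2 fell with a log2 fold change of -1.13 (SE 0.057, 95% interval -1.25 to -1.01, edgeR adjusted p = 5.0e-10), or 2.19-fold, and was a DEG. The intervals of the paralogues do not overlap. Their ratio within a library does not depend on scaling between libraries. There were 0.963 and 0.907 Suv39h1 counts for each Suv39h2 count in the Undiff libraries, and 3.64 and 4.03 in the Day4 libraries. The log2 ratio was 2.03 higher in Day4 (SDs of 0.061 in Undiff and 0.10 in Day4, n = 2 each), against which the two-sided exact permutation p was 0.33, the smallest that 2 against 2 libraries can give. Counted per kilobase of exon, Suv39h1 made up 56.1% and 54.6% of the pair in Undiff and 82.8% and 84.3% in Day4.

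Some features of these loci bear on the counts. Suv39h1 lies on the reverse strand at chrX:8061171-8074760 and shares 16.8% of the 100-base stretches of its exons with the gene model Gm14820. Whether fragments in such stretches were lost from its counts was not tested. Suv39h2, on the reverse strand at chr2:3455815-3474986, overlaps Dclre1c on the opposite strand by 357 bases. The upstream sequences of this pair are shown because the genes moved apart, in the 250 bases before a RefSeq transcript start of GRCm38.p6, written 5′ to 3′ on the reverse strand. Suv39h1 is shown for the start at its annotated end, chrX:8074761-8075010, where the capitals mark CCAAT boxes read on the other strand, and Suv39h2 for chr2:3474987-3475236, where the capitals mark a cyclic AMP response element (CRE, TGACGTCA).
Suv39h1: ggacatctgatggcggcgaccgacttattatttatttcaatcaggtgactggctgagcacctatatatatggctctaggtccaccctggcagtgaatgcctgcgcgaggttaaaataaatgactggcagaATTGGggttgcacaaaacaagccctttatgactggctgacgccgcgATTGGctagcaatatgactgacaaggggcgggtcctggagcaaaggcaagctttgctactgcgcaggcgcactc
Suv39h2: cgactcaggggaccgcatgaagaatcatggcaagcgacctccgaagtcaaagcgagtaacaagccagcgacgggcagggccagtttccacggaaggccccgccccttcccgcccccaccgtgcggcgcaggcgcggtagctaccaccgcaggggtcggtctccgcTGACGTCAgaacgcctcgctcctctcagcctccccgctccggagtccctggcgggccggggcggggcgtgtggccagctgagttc
In the windows from 250 bases before to 50 bases after a start, searched on both strands, the CRE letters occurred in 1.79% and the letters CCAAT in 37.4% of all 32817 RefSeq windows of the mouse. Of the 10 silencing genes only Suv39h2 held the CRE letters, and 5 held CCAAT in at least 1 of their 15 windows together (Setdb1, Suv39h1, Atf7ip, Zfp57 and Zfp809). The window of another Suv39h1 start, with the 250 bases before it at chrX:8074362-8074611, held neither CCAAT nor the CRE letters. A match is a string of letters and no binding was measured.

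**Figure D3:**
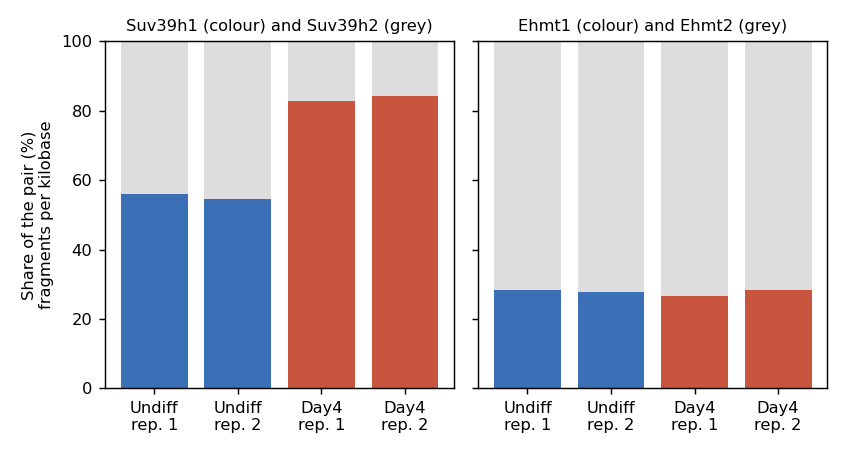
Share of each paralogue pair in % (vertical axis, 0 to 100) taken by Suv39h1 (left panel) and Ehmt1 (right panel) in each library, from fragments per kilobase of exon, with the grey remainder for Suv39h2 and Ehmt2. The Suv39h1 share is 54.6% to 56.1% in Undiff and 82.8% to 84.3% in Day4, whereas the Ehmt1 share lies between 26.5% and 28.3% in all 4 libraries.

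Ehmt1 and Ehmt2 form the heterodimer that writes mono- and dimethylated H3K9, and both rose by less than the DEG minimum. Ehmt1 had 4140 and 3998 normalized counts in Undiff and 5262 and 5405 in Day4. Ehmt2 had 7255 and 7142 in Undiff and 10085 and 9444 in Day4. For both genes the Day4 libraries lay above the Undiff libraries.

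The log2 fold change was 0.39 for Ehmt1 (SE 0.045, 95% interval 0.29 to 0.49, edgeR adjusted p = 2.7e-06) and 0.44 for Ehmt2 (SE 0.044, 95% interval 0.34 to 0.54, edgeR adjusted p = 7.5e-07). Their intervals overlapped. There were 0.571, 0.560, 0.522 and 0.572 Ehmt1 counts for each Ehmt2 count in Undiff replicates 1 and 2 and Day4 replicates 1 and 2. The difference in the log2 ratio was -0.05 (SDs of 0.020 and 0.094, n = 2 each), the values of the states overlapped and the two-sided exact permutation p was 1.0. Ehmt1 lies at chr2:24790769-24919643 on the reverse strand and Ehmt2 at chr17:34898463-34914073 on the forward strand, and neither overlaps another counted gene.

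The summed level of each pair was also compared, as CPM per kilobase of exon. Suv39h1 and Suv39h2 together reached 26.1 and 25.3 in Undiff and 31.1 and 32.7 in Day4, a ratio of means of 1.24. The sum was thus not lower in either Day4 library, although Suv39h2 was. Ehmt1 and Ehmt2 together reached 65.7 and 64.3 in Undiff and 89.1 and 85.6 in Day4, a ratio of means of 1.34.

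Hells, also called LSH, is a chromatin remodelling ATPase of the SNF2 family that DNA methylation of repeats depends on. It had 19543 and 21293 normalized counts in the Undiff libraries and 3721 and 3969 in the Day4 libraries. Every Undiff library exceeded every Day4 library by a wide margin. The means were 20418 ± 1237 and 3845 ± 176 (SD, n = 2 each), with a log2 fold change of -2.41 (SE 0.052, edgeR adjusted p = 1.0e-13), or 5.30-fold lower. Hells lies at chr19:38930262-38970470 on the forward strand and overlaps no other counted gene.

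Markers of replication and mitosis moved in the same direction as Hells, whose RNA is known to be abundant in dividing cells. All 10 of them were lower in Day4 by the adjusted p-value and 4 were DEGs (Mcm3, Mcm5, Top2a and Ccnb1), with a median log2 fold change of -0.93. Among all genes tested 75.6% passed the adjusted p-value and 20.6% were DEGs lower in Day4. The summed normalized counts of the 10 markers were 219296 and 214823 in Undiff and 103879 and 108822 in Day4. The largest fall among them, -1.69 on the log2 scale for the mitotic cyclin Ccnb1, was smaller than that of Hells, and the part of cell division in the fall of Hells was not tested. The sequence before the RefSeq start that the promoter table gives for Hells, forward strand, GRCm38.p6, chr19:38930740-38930989, lies inside the RefSeq span of the gene given above, not before its first base. It is shown with an E2F motif in capitals, since E2F factors drive many genes of the S phase.
Hells: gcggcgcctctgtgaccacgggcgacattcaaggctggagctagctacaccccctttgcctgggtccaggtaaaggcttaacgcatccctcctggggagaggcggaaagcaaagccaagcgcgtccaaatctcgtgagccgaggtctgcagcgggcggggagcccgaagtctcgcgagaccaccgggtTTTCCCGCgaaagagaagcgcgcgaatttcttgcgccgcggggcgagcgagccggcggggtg
The letters TTTCCCGC or TTTGGCGC occurred in 1.56% of the 32817 windows, and Hells was the only one of the 10 genes to hold either. The match lay at -62 from that start. Zfp57, the gene with the largest estimated fall, has 3 RefSeq starts, and the sequence before the first is shown (forward strand, chr17:37000913-37001162). None of the 5 motifs searched (E2F, CCAAT, CRE, the octamer ATTTGCAT and the E-box CACGTG) was found in its window, whereas the window of another Zfp57 start held a CCAAT box at -19. Both windows of Zfp809, which also fell well past the minimum, held a CCAAT box and none of the other motifs.
Zfp57: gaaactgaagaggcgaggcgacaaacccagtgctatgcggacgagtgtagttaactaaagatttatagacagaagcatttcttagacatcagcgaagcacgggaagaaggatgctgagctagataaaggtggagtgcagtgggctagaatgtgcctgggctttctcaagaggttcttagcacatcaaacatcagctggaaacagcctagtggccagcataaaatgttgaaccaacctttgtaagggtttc
The guanine and cytosine content was 65.6% in the Hells sequence and 46.4% in that of Zfp57. The octamer, which POU factors such as Pou5f1 can bind, was in 1.74% of all windows and among the 10 genes only in that of Atf7ip. The E-box was in 7.15% of windows and among the 10 genes only in those of Ehmt2.

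To order the genes by level, CPM were divided by exon length, which gives CPM per kilobase of exon. In Undiff the order was Trim28 (mean 523), Hells (92.9), Zfp57 (90.3), Ehmt2 (46.7), Setdb1 (30.7), Ehmt1 (18.3), Zfp809 (15.0), Suv39h1 (14.2), Atf7ip (11.6) and Suv39h2 (11.4). Hells and Zfp57 overlapped between replicates and the other neighbours did not, although with 2 libraries per state small gaps such as that of Atf7ip and Suv39h2 rest on few values. The exon lengths also come from another annotation than the counts. How far this shifts the order of close neighbours, in either state, was not tested. In Day4 the order was Trim28 (258), Ehmt2 (63.4), Setdb1 (31.4), Suv39h1 (26.6), Ehmt1 (23.9), Hells (17.5), Zfp57 (15.2), Atf7ip (10.2), Suv39h2 (5.24) and Zfp809 (3.57), with no overlap between neighbours. Hells and Zfp57 went from ranks 2 and 3 to ranks 6 and 7, and Trim28 stayed at rank 1. All 5 enzymes that write H3K9 methylation were thus detected in both states, and the order among them changed, with Suv39h1 passing Ehmt1.

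**Figure D4:**
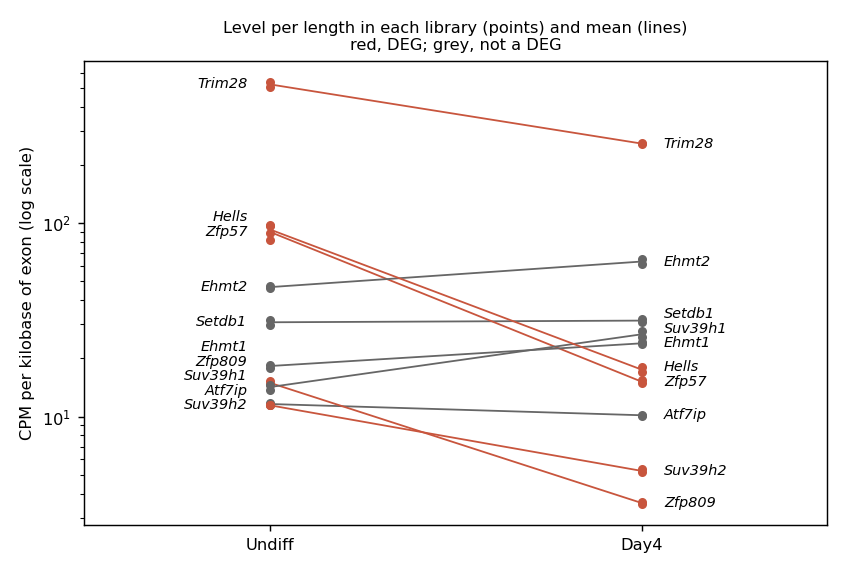
Level of each of the 10 silencing genes in CPM per kilobase of exon (vertical axis, log scale) in the libraries of Undiff and Day4 (points) with lines joining the means, DEGs in red. Trim28 stays highest (523 and 258), and the lines of Hells and Zfp57 fall across those of Ehmt2, Setdb1, Suv39h1 and Ehmt1.

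The surrounding pathway was read from 8 lists of genes that act with the 10. Together they hold 77 genes, of which 34 were DEGs, 9 higher (11.7%) and 25 lower (32.5%), and the median log2 fold change was -0.62. Of the 77 genes 72 passed the adjusted p-value, where 75.6% of all genes tested did. The DEG shares of the lists stand beside 22.2% higher and 20.6% lower among all genes tested. The lists were written with earlier results of these data known and some hold genes that mark pluripotent cells, so their direction is a description.

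Of 9 other H3K9 methyltransferases and cofactors, 2 were DEGs higher and 4 lower in Day4, with a median of -0.70. Cdyl2, a chromodomain protein of the family that reads H3K9 methylation, had 3326 and 3651 normalized counts in Undiff and 360 and 341 in Day4 (log2 fold change -3.32). Atf7ip2, the paralogue of Atf7ip, had 709 and 743 in Undiff and 97.1 and 94.4 in Day4 (-2.92), and so fell much further than Atf7ip. Cdyl (-1.16) and Prdm16 (-2.63) were lower as well, whereas its paralogue Mecom, also called Prdm3, was higher (3.05). Wiz, a zinc finger partner of the Ehmt1 and Ehmt2 complex, rose from 1563 and 1603 to 4050 and 4051 (1.36), the same direction as both enzymes.

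The HUSH complex silences young retroelements and transgenes by reading and spreading H3K9 trimethylation, and Morc proteins compact chromatin alongside it. Of the 7 genes in this list 3 were DEGs, all lower, and the median was -1.39. Morc3 had 8369 and 8642 normalized counts in Undiff and 2058 and 2243 in Day4 (log2 fold change -1.98). The HUSH scaffold Fam208a, also called TASOR, went from 6670 and 7053 to 2035 and 2052 (-1.75), and the chromodomain subunit Mphosph8 from 5497 and 5493 to 2123 and 2063 (-1.39). Another subunit, Pphln1, was not a DEG (log2 fold change 0.14). Morc2a was not a DEG either, with 7939 and 8485 normalized counts in Undiff and 6251 and 6186 in Day4 (-0.40), so it fell much less than Morc3. Morc2b had the lowest value of the list (-6.28) but was under the minimum mean count.

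Of the 3 HP1 proteins, which bind methylated H3K9, only Cbx1 was a DEG. It was lower, with 7732 and 8118 normalized counts in Undiff and 3916 and 3854 in Day4 (log2 fold change -1.03), and its call was lost with library totals (-0.96), without Undiff replicate 2 (-0.99) and in the test against a fold change of 2 (adjusted p = 0.22, where the other alternatives gave 2.0e-78 to 5.9e-05). Cbx3 had a log2 fold change of -0.29 and Cbx5 one of 0.34.

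The H3K9 demethylases, which remove the mark, had 3 DEGs higher and 2 lower among 11, with a median of 0.20. Phf2 rose from 343 and 336 normalized counts to 3666 and 3522 (log2 fold change 3.40), the highest value of any of the 8 lists. Kdm4b (1.17) and the low gene Kdm4d (3.15) were also higher. Kdm4c went from 7125 and 6277 to 1197 and 1179 (-2.50) and Jmjd1c from 9428 and 10251 to 3298 and 3486 (-1.53). Members of the same Kdm4 family thus changed in opposite directions.

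Of 9 further KRAB zinc finger proteins with known retroelement or imprint targets, 1 was a DEG higher and 3 were lower, with a median of -0.54. Zfp819 had 913 and 1029 normalized counts in Undiff and 18.8 and 15.4 in Day4 (log2 fold change -5.84), and Zfp459 had 2326 and 2339 in Undiff and 59.5 and 45.3 in Day4 (-5.50). Both fell further than Zfp57 and Zfp809. Zfp961 was lower (-1.48) and Zfp617 higher (1.19). Zfp445, which acts with Zfp57 at imprinted loci, was not a DEG and had a log2 fold change of 0.49, opposite in sign to that of Zfp57.

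Among 20 chromatin factors of retroelement silencing, 2 were DEGs higher and 5 lower, with a median of -0.66. Zfp42, also called Rex1 and a marker of pluripotent cells, had 21580 and 25260 normalized counts in Undiff and 84.6 and 72.2 in Day4 (log2 fold change -8.24). Rif1 went from 24203 and 24742 to 4731 and 4845 (-2.35). L3mbtl2 (-2.33), Pcgf6 (-1.63) and Mga (-1.14), which are subunits of a single variant Polycomb complex, were lower. The other subunits of that complex were not examined as a set. The genes of the replacement histone H3.3, H3f3a (1.05) and H3f3b (1.07), were higher, and the call of H3f3a was lost in the test against a fold change of 2 (adjusted p = 0.067, where the other alternatives gave 3.5e-120 to 2.6e-05).

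Of 8 DNA methylation partners of Hells and Trim28, 3 were DEGs, all lower, with a median of -0.79. Dnmt3l, the cofactor of new DNA methylation, had 12566 and 13036 normalized counts in Undiff and 4.18 and 3.07 in Day4 (log2 fold change -11.77), near the floor of 3 counts. Dnmt3b, a methyltransferase that sets new methylation, went from 19124 and 18055 to 469 and 471 (-5.30), and Uhrf1, which directs maintenance methylation, from 15331 and 14624 to 5854 and 5999 (-1.34). Dnmt3a (0.71) and Dnmt1 (-0.67) were not DEGs. The fall of Hells (-2.41) was larger than that of Uhrf1 and smaller than that of Dnmt3b.

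Of 10 genes that restrict retroelement RNA or DNA, 1 was a DEG higher and 4 lower, with a median of -0.73. The piRNA pathway genes Mov10l1 (-7.60) and Piwil2 (-6.91) and the germ line gene Tex19.1 (-6.72) had the lowest log2 fold changes. In Day4 Mov10l1 held 4.18 and 3.07 normalized counts, Piwil2 5.22 and 8.45, and Tex19.1 38.7 and 26.9. The sizes for Mov10l1 and Piwil2 thus rest on values near the floor of 3 counts. Apobec3, a cytidine deaminase that attacks retroviral DNA, went from 3540 and 3451 normalized counts to 431 and 436 (-3.01). Fv1, which came from an endogenous retrovirus and blocks murine leukaemia virus, rose from 68.8 and 58.6 to 283 and 293 (2.17).

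**Figure D5:**
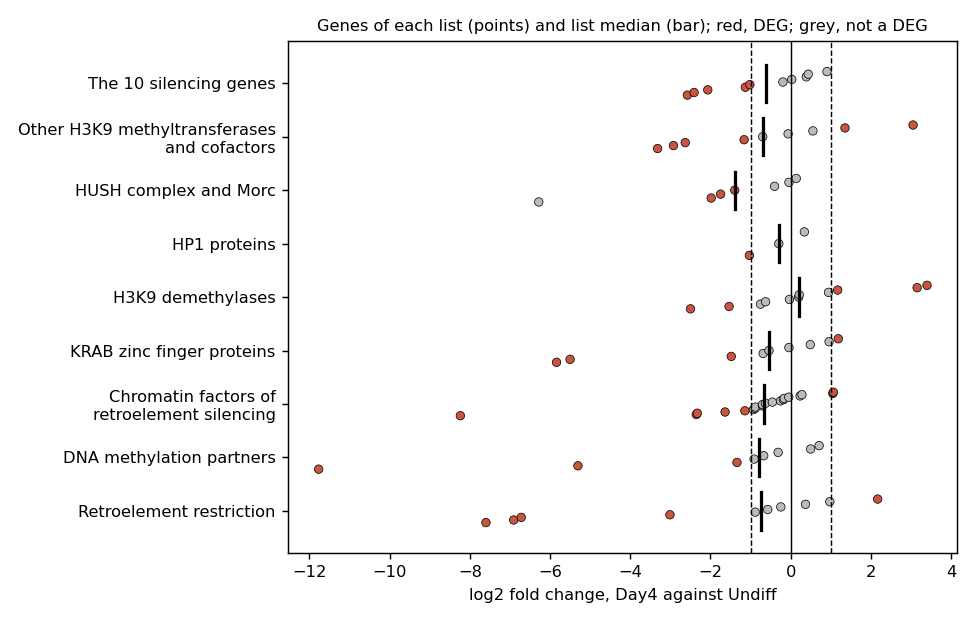
Log2 fold change of Day4 against Undiff (horizontal axis) of each gene (points, DEGs in red) of the 10 silencing genes and the 8 pathway lists, with black bars for list medians and dashed lines at the minimum of 1 in either direction. Medians run from -1.39 (HUSH complex and Morc) to 0.20 (H3K9 demethylases), and DEGs in both directions occur in 5 of the 8 lists.

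The fall of Zfp57 and Zfp809 was set beside all zinc finger genes whose symbol is Zfp followed by a number, a class defined by name alone, with its alternatives added after seeing the data, that includes genes without a KRAB domain. Of 333 such genes tested, 114 were DEGs higher in Day4 (34.2%) and 33 were lower (9.91%), and their median log2 fold change was 0.60. Among all genes tested 22.2% were DEGs higher and 20.6% were lower, with a median of -0.027. Zfp57 and Zfp809 were thus among the smaller number of Zfp genes that fell. Over the alternatives with DEG thresholds, 100 to 124 of these genes were higher and 28 to 35 lower.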

How the data were processed

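Total RNA of R1 mouse ESCs was sequenced as paired-end TruSeq libraries, 2 of Undiff and 2 of Day4, grouped by the sample labels. The authors ran cutadapt for trimming and STAR 2.4.2a for alignment to mm10, and counted uniquely aligned fragments per gene with htseq-count, and the deposited files hold these counts as whole numbers, not normalized. The methods say that the strandedness of samples was taken into account and name only the ONT Direct RNA libraries as strand-specific. The option used for TruSeq gene counts is not spelled out, so overlapping genes on opposite strands are uncertain. Fragments assigned to no gene were 12.1% and 13.3% in the Undiff files and 7.50% and 7.75% in the Day4 files, ambiguous fragments were 1.84% to 1.91%, and both stayed out of the library totals. The part of the first difference in the results was not tested.

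The quasi-likelihood test of edgeR 4.0.16 (glmQLFit, then glmQLFTest; R 4.3.3) was run on TMM-normalized counts, with Benjamini-Hochberg adjustment over the 19891 genes with a count. The DEG thresholds and the comparison follow the methods of the study, which used DESeq2. Normalized counts are counts brought to a common effective library size, the geometric mean of the 4. The SE is the size of the log2 fold change divided by the square root of F. Intervals are at 95%. Replicates differed beyond counting error, with a chi-square per degree of freedom of 5.71 in Undiff and 3.07 in Day4. Tested on simulated counts of Day4 against Undiff, edgeR recovered 200 of 200 changed genes (log2 fold changes of 1.5, 2 or 3) and called 1 unchanged gene. The 19531 genes fitted there include the changed ones. The simulation gave every gene the same dispersion, changed only well-counted genes and changed far fewer genes than the data. Changes near the DEG minimum were not simulated, so it does not bear on calls such as that of Trim28.

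The alternatives were DESeq2 1.42.0 with and without the prior, DESeq2 size factors, library totals, filterByExpr, a replicate block, thinning to the smallest total, no minimum count, the adjusted p alone, a test against a fold change of 2 (glmTreat) and leaving out each library. Positions and promoters come from RefSeq (GRCm38.p6, the assembly of mm10), matched for 10 of 10 genes, and exon lengths from GENCODE vM21.

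The 10 genes, the lists and the tests were chosen with earlier results of these data known. The rule for named genes took all 10, from each list up to 4 DEGs with the largest absolute log2 fold change among genes with a mean of at least 1 CPM and up to 2 against the direction of most, and the 3 genes nearest in profile to the one that changed most. Single list genes outside this rule were named after their values were seen, as was the class of Zfp symbols. These genes were Pphln1, Morc2a, Morc2b, Cbx3, Cbx5, Mga, Cdyl, Kdm4d, Zfp445, Dnmt3a and Dnmt1. Prdm3 was counted under its row Mecom and Jhdm1d under Kdm7a.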

Additional observations from a re-analysis of the deposited data

How the results depend on the processing

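Over the alternatives 9 of the 10 genes kept their direction, and the calls of Suv39h2, Zfp57, Zfp809 and Hells as DEGs were kept in every one. By the adjusted p alone, with the minimum count, 9 of the 10 genes, 71 of the 77 listed genes and 14309 of all genes were called, because that rule has no minimum fold change. Setdb1, with adjusted p-values of 0.076 to 1.0 over the alternatives, changed sign to -0.0090 with DESeq2 (with or without the prior) and with DESeq2 size factors, to -0.0025 with filterByExpr, to -0.0002 after thinning and to -0.014 without Undiff replicate 1, and was -0.014 to 0.071 when each library was left out. Library totals moved the median of all genes by 0.066 and that of the 10 genes to -0.54. When each library was left out in turn, the DEGs were 4 to 5 of the 10 genes, 35 to 37 of the listed genes and 8306 to 8410 of all genes, and the median of the 10 was -0.65 to -0.58. The 4 came from leaving out Undiff replicate 2, which lost Trim28. After thinning, the difference in log2 ratio between Day4 and Undiff was 2.06 for Suv39h1 to Suv39h2 and -0.06 for Ehmt1 to Ehmt2. With the replicate block 5 of the 10, 34 listed and 8515 of all genes were DEGs, with no change of call among the 10. Same-numbered libraries did not deviate together (correlation -0.017 over 14643 genes). The correlation cannot tell whether same-numbered cultures were handled together. With 2 libraries per state the precision rests on the spread shared over genes, and low genes such as Dnmt3l and Mov10l1 in Day4 are limited by depth.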
